A study of Mus musculus with 24 samples.

Results

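The 32 genes described here are markers of the oligodendrocyte lineage and of myelin, read in RNA from astrocytes that had been sorted by fluorescence out of 4 regions of the adult mouse brain. They were taken as a list of gene names and not by a cut on their values, although earlier results of these data were known. All 32 were present among the 24421 gene names of each library. By role, 10 encode proteins of the myelin sheath and its membrane, 3 enzymes of myelin lipids and acetate, 6 transcription factors, 5 connexins, receptors or axon-contact proteins, 4 proteins of iron, cofactor, protease and stress biology, and 4 markers of precursor or newly formed oligodendrocytes.

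Oligodendrocytes wrap axons of the central nervous system in layers of membrane that are compacted by basic proteins such as Mbp and enriched in galactolipids. They arise from precursor cells that carry the growth factor receptor Pdgfra, and the transcription factors Olig2, Sox10 and Myrf act in sequence as precursors turn into myelinating cells. Astrocytes do not make myelin, although they share some of these genes, such as Olig2, at low levels. In the RNA of a sorted bulk sample, RNA carried over from oligodendrocytes and expression in the astrocytes themselves cannot be told apart, and neither can fewer cells of a type and less RNA per cell.

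The study asked how loss of the transcription factor NFIA in adult astrocytes changes gene expression by region. It sequenced RNA of sorted astrocytes from 4 regions, namely brainstem, cortex, hippocampus and olfactory bulb, with 3 libraries for each region and genotype and 24 in all. Mice labelled knockout were NFIAfl/fl; Aldh1l1-CreER; Aldh1l1-GFP, and control mice were NFIAfl/fl; Aldh1l1-GFP. All were 20-week-old C57BL6 mice, and both genotypes thus carried the floxed Nfia allele and the astrocyte GFP reporter that served for sorting, while controls lacked the inducible Cre recombinase. The Cre and the reporter are both driven by the astrocyte gene Aldh1l1, so recombination is aimed at astrocytes and not at oligodendrocytes. The inducing drug and its schedule are not given in the sources used here, and neither is the number of mice behind a library.

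Libraries held 1090777 to 24297573 reads, the fewest in brainstem library 3 labelled knockout. A level is given throughout as reads divided by a size factor that puts all 24 libraries on 1 scale. The ribosomal transcript Rn45s took 17.7 to 20.9% of the reads in cortex, 13.5 to 25.6% in brainstem and 0.966 to 3.33% in olfactory bulb and hippocampus, except for 20.8% in olfactory bulb library 3 labelled knockout. All 14 astrocyte markers were above 0 in all 24 libraries, with a summed level of 141070 in brainstem control 1 up to 696990 in a cortex control.

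Nfia itself, the gene that the labels give as deleted, went against the labels. In olfactory bulb its level was 7488, 7936 and 8601 in libraries labelled knockout, against 4041, 4551 and 5008 in controls. In hippocampus it was 10618, 11674 and 13319 in libraries labelled knockout, against 4552, 7458 and 6635 in controls. In cortex it was 10034, 11277 and 10487 in libraries labelled knockout, against 5743, 6599 and 7044 in controls. In each of these regions every library labelled knockout lay above every control. The same held in brainstem, with 9902, 10331 and 8762 in libraries labelled knockout, against 3307, 6000 and 4554 in controls. Averaged over the regions, the log2 fold change of Nfia was 0.90 (SE 0.09, adjusted p = 1.94e-07, limma). The tables give 1 value per gene, so loss of a single exon was not tested. Every difference between genotypes below is therefore one between libraries by their label.

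All 32 genes passed the filter for testing, a level of at least 20 in at least 3 libraries, and 28 were above 0 in all 24 libraries. Without the brainstem libraries 29 would have passed, and Nkx6-2, Gjb1 and Klk6 would not. Per kilobase of exon and averaged over the 24 libraries, Mbp was the most abundant at 2847, followed by Bcas1, a marker of early myelinating cells, at 621, the transcription factor Olig1 at 388 and the pteridine reductase Qdpr at 336. Cnp, a phosphodiesterase of the uncompacted myelin layers, averaged 294 per kilobase. Mal, a lipid raft protein of myelin, averaged 275 per kilobase, and Mobp, another basic myelin protein, 236 per kilobase. At the low end, Opalin averaged 9.55 per kilobase, Gpr17 8.55, Gjb1 5.35 and Enpp6 4.76. The gene list thus ran over abundant and rare messages, with sheath genes and stage markers at both ends.

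Together the 32 genes took 0.147 to 1.85% of all reads in a library. In brainstem the share was 1.41 ± 0.537% in libraries labelled knockout and 1.204 ± 0.321% in controls (SD, n = 3 each). In olfactory bulb it was 0.187 ± 0.0410% in libraries labelled knockout and 0.253 ± 0.0755% in controls, the lowest of the 4 regions in both genotypes. Hippocampus held 0.461 ± 0.146% in libraries labelled knockout and 0.738 ± 0.292% in controls, and cortex 0.383 ± 0.155% in libraries labelled knockout and 0.392 ± 0.103% in controls. All these shares count Rn45s among the reads. Without Rn45s, hippocampus held 0.526, 0.589 and 0.304% in libraries labelled knockout, against 0.995, 0.840 and 0.417% in controls. Cortex then held 0.701, 0.336 and 0.383% in libraries labelled knockout, against 0.646, 0.421 and 0.409% in controls. Mbp alone made up 44.1 to 72.6% of the summed level. Set against the astrocyte markers, the genes summed to 278 ± 123 per 1000 marker reads in brainstem libraries labelled knockout and 335 ± 133 in brainstem controls. In the other 3 regions that figure averaged 35.9 to 48.8 in libraries labelled knockout and 42.0 to 91.6 in controls.

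**Figure D1:**
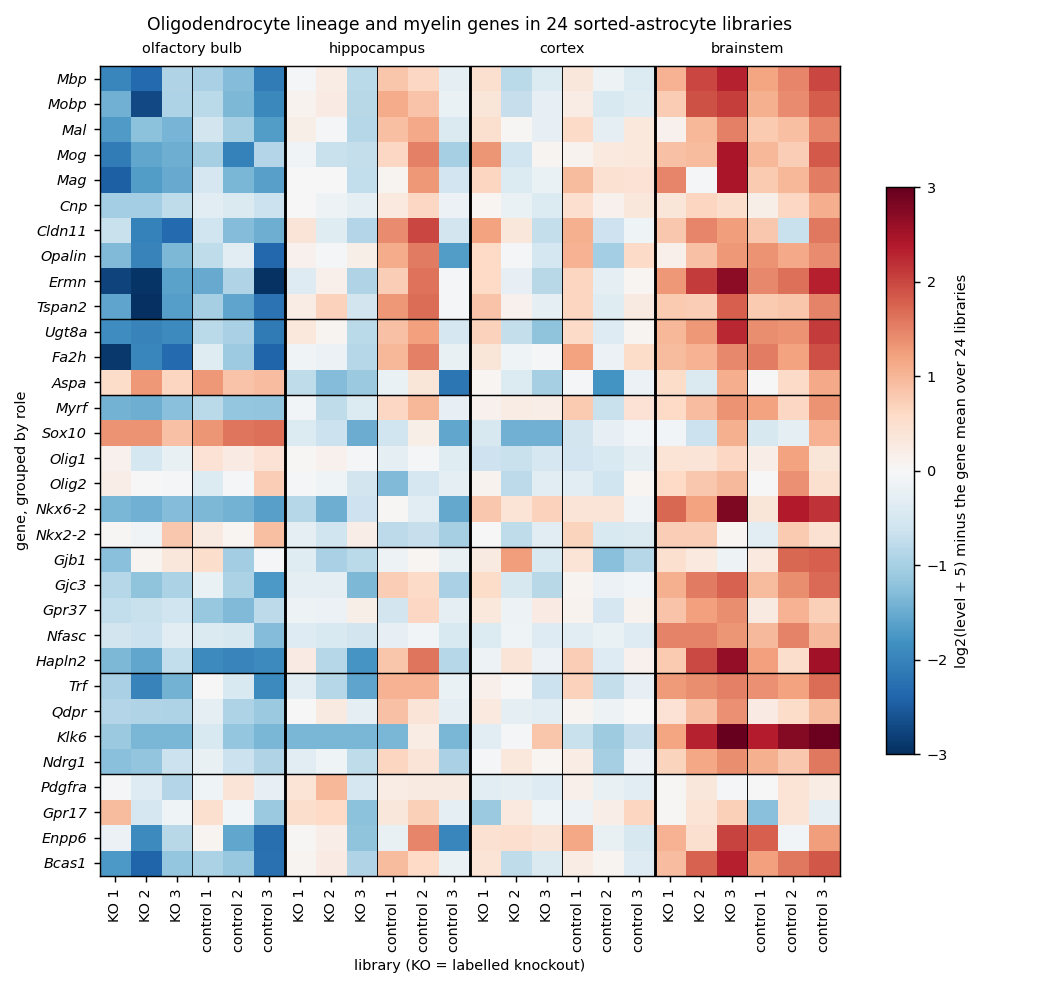
Levels of the 32 genes in the 24 libraries, as log2(level + 5) minus the mean of each gene over the libraries, with genes in rows by role and libraries in columns by region, those labelled knockout left of controls. Most myelin genes are lowest in the 6 olfactory bulb libraries and highest in the 6 brainstem libraries, whereas Sox10 and Aspa are high in olfactory bulb.

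Promoters are shown for 3 genes on which the results below turn, Cnp, which was lower in libraries labelled knockout on average, Klk6, the serine protease with the highest brainstem ratio, and Mobp, whose promoter holds most copies of a SOX word. RefSeq promoter entries on GRCm38.p6, 250 bases before to 50 after a transcription start, were at hand for 23 of the 32 genes, with 31 promoters in all. The stretches printed run from 250 to 51 bases before the start, 5′ to 3′ on the plus strand, at chr11:100574689-100574888 for Cnp, chr9:120149492-120149691 for Mobp and chr7:43824294-43824493 for Klk6. Capitals mark TTGGCA, a word bound by nuclear factor I proteins, and ACAAAG, the core word of SOX proteins, on either strand, so that TGCCAA and CTTTGT are their minus-strand forms.
Cnp: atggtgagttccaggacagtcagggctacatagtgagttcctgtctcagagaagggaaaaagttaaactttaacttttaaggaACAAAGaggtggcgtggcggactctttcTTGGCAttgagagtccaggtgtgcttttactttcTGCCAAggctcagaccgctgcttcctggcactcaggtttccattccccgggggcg
Mobp: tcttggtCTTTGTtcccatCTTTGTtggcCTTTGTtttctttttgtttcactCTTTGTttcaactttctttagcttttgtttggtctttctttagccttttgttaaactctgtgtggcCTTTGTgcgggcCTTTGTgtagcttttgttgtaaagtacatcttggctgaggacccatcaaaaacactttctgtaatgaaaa
Klk6: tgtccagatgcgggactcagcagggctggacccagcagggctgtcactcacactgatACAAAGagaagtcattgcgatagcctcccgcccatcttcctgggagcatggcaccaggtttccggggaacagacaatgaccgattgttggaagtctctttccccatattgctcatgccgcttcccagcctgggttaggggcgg

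The Cnp promoter held TTGGCA in both orientations, beginning 139 and 105 bases before the start, and 1 ACAAAG at 167 bases before it. Mobp had 6 copies of ACAAAG, all on the minus strand, and Klk6 had 1. Over the 31 promoters TTGGCA was present in 2 (6.45%), 1 of Cnp and 1 of Nfasc. It was in 14.1% of 32851 mouse promoters of the same length and in 11.4% of 12551 promoters of tested genes. ACAAAG was present in 9 (29%), against 18.7% of all promoters and 13.8% of those of tested genes. These 9 belong to 7 genes, and 2 of them are overlapping promoters of Mag that share 1 copy. The E-box CANNTG was present in 24 (77.4%), against 72.3% of all and 63.8% of those of tested genes. The full nuclear factor I palindrome, TTGGC and GCCAA with 5 bases between, was in 0 of the 31 and in 0.0365% of all. These are letters in a window, not measured binding.

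Among controls, genes of mature oligodendrocytes were at much lower levels in olfactory bulb astrocytes than in astrocytes of the other 3 regions. Of the 32 genes, 22 were lower and 1, Sox10, was higher in olfactory bulb controls than in the mean of the other 3 control regions (adjusted p under 0.05, limma), where 6.63% of all genes tested were lower and 7.54% higher. The median log2 fold change over the 32 genes was -1.49, beside 0.01 over all 12770 genes tested. Log2 fold changes are on the log2(level + 5) scale, which understates changes of genes at low levels. All 10 sheath and membrane genes were lower, although the call of Cldn11 was lost in 15 of the 24 fits that left out 1 library. Of the 29 genes that passed the filter without the brainstem libraries, 21 were lower and 1 higher. The 4 region comparisons share control libraries with each other and with the genotype comparisons below.

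Mbp, which compacts the myelin membrane, had levels of 8459, 6758 and 3914 in olfactory bulb controls. In the other controls it reached 29665, 25802 and 13612 in hippocampus, 20957, 15133 and 12560.0 in cortex, and 38094, 45756 and 67041 in brainstem. Every olfactory bulb control lay below every other control, and the log2 fold change was -2.08 (SE 0.38, adjusted p = 0.000815). Ermn, a cytoskeletal protein of late oligodendrocytes, and Tspan2, a tetraspanin, fell by 2.71 and 2.33 on the log2 scale. Both were chosen for naming after their values were seen. The smallest change among the 10 was that of Cnp, at -0.87 (SE 0.16, adjusted p = 0.000242), with 795, 735 and 642 in olfactory bulb controls against 879 to 2122 in the other controls.

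Among the lipid enzymes, Fa2h, which hydroxylates the fatty acids of myelin sphingolipids, had levels of 54.2, 30.7 and 9.32 in olfactory bulb controls and of 59.9 to 282 in the others, again with no overlap. Its log2 fold change was -2.23 (SE 0.36, adjusted p = 5.90e-05). Ugt8a, which makes galactosylceramide, had levels of 141, 124 and 53.2 in olfactory bulb controls against 176 to 1089 in the others, a change of -2.05 (adjusted p = 0.00224). Aspa, which splits N-acetylaspartate to release acetate, went the other way. Its level was 297, 217 and 228 in olfactory bulb controls against 21.97 to 265 in the others, and its log2 fold change of 1.29 missed the threshold (adjusted p = 0.0528). Aspa passed it as higher with DESeq2 (adjusted p = 0.0280), the added constant 20 (0.0377), no filter (0.0451) and the filter at 50 (0.0498), and in 8 of the 24 limma fits that left out 1 library (adjusted p of 0.0167 to 0.0486).

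The transcription factors divided. Myrf, which drives myelin gene expression in maturing cells, was lower in olfactory bulb controls by -1.62 (SE 0.27, adjusted p = 7.52e-05), with 56.4, 43.6 and 42.8 against 63.3 to 271 in the others. Sox10, on the minus strand at chr15:79154908-79165240 of mm10, had levels of 172, 211 and 217 in olfactory bulb controls. It was 19.0 to 75.4 in hippocampus and cortex controls, and 46.0, 52.8 and 142 in brainstem controls. Every olfactory bulb control lay above every other control, as for 4.96% of all genes, and the log2 fold change was 1.81 (SE 0.37, adjusted p = 0.000784). Nkx6-2, a homeobox factor, was at most at 1.11 in the olfactory bulb controls. No test is given for it because it would not have passed the filter without the brainstem libraries. Olig1, Olig2 and Nkx2-2 did not pass the test, with log2 fold changes of 0.39, 0.21 and 0.60, and Olig1 passed it without brainstem control 2 (0.49, adjusted p = 0.00555).

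Sox10 is also made by the ensheathing glia of the olfactory nerve and by Schwann cells. Of 10 markers of peripheral and ensheathing glia, 7 were abundant enough to be tested, 2 were above 0 in all 24 libraries and 0 were at 0 throughout. Their summed level was 1594 to 1959 in olfactory bulb controls, 404 to 964 in hippocampus controls, 88.6 to 540 in cortex controls and 270 to 1674 in brainstem controls. Within each of the 4 regions, the controls ran in the same order for this sum as for choroid plexus markers. In brainstem controls it was 1674, 270 and 943 beside 252680, 53251 and 124810 for those markers. In olfactory bulb controls it was 1959, 1594 and 1782 beside 351, 253 and 329. The sum is therefore not read as a measure of such glia in any region. In olfactory bulb controls 5 of the 7 were higher and 1 was lower. Their part in the result for Sox10 was not tested.

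Among the connexins, receptors and axon-contact genes, 4 of 5 were lower in olfactory bulb controls. Nfasc, an adhesion molecule of the axon and of the glial loops beside nodes, had levels of 546, 533 and 300.4 in olfactory bulb controls against 540 to 2105 in the others, with -0.93 as the log2 fold change (SE 0.15, adjusted p = 4.69e-05). Gjc3, a connexin of oligodendrocytes, fell by 1.42 (adjusted p = 0.0103), and this call was lost without olfactory bulb control 3 (adjusted p = 0.111). Trf, transferrin, which oligodendrocytes make as an iron carrier, fell by 1.45 (adjusted p = 0.0166) and was likewise lost without that library (adjusted p = 0.161). Qdpr, which regenerates a pteridine cofactor, fell by 1.06 (adjusted p = 0.000964). Without olfactory bulb control 3 the number of the 32 genes past the threshold was 18, with Opalin, Cldn11 and Ndrg1 lost besides Gjc3 and Trf. Ndrg1 was lost in 9 of the 24 fits that left out 1 library.

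The stage markers divided too. Bcas1 fell by 2.10 in olfactory bulb controls (SE 0.38, adjusted p = 0.000812), with 854, 739 and 344 against 1259.9 to 6004 in the others. Pdgfra, the receptor of precursor cells, had 112, 162 and 104 in olfactory bulb controls against 97.9 to 165 in the others, ranges that overlap almost fully, with -0.11 as the log2 fold change (SE 0.24, adjusted p = 0.832). Gpr17, a receptor of committed precursors, had 58.6, 38.0 and 15.9 against 13.9 to 68.9 (log2 fold change -0.27, adjusted p = 0.771).

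**Figure D2:**
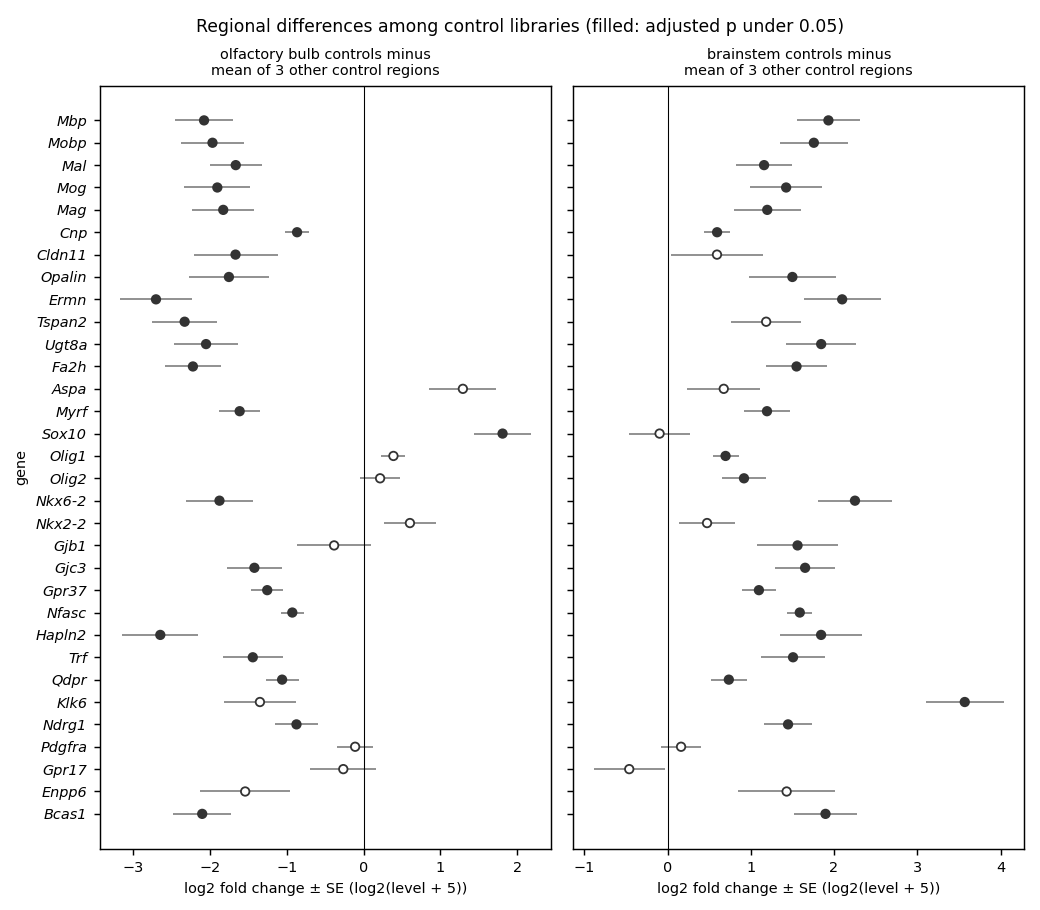
Log2 fold change with its SE for each of the 32 genes, in olfactory bulb controls and in brainstem controls against the mean of the other 3 control regions, filled where the adjusted p is under 0.05. In olfactory bulb 22 genes lie below 0 as filled points and Sox10 above it, and in brainstem 24 filled points lie above 0.

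Brainstem controls stood at the other end. Of the 32 genes, 24 were higher and 0 lower than in the mean of the other 3 control regions, where 8.24% of all genes tested were higher and 9.33% lower. The median log2 fold change over the 32 genes was 1.43. The count by role was 8 of 10 sheath genes, 2 of 3 lipid enzymes, 4 of 6 transcription factors, 5 of 5 connexins, receptors and axon-contact genes, 4 of 4 iron, cofactor, protease and stress genes, and 1 of 4 stage markers. These counts include Nkx6-2, Gjb1 and Klk6, which would not have passed the filter without the brainstem libraries, so their calls are not independent of the filter. Without them 21 of 29 genes were higher, among them 3 of 5 transcription factors, 4 of 4 connexins, receptors and axon-contact genes and 3 of 3 iron, cofactor and stress genes. Tspan2, a sheath gene that missed the threshold, passed it with DESeq2 (adjusted p = 0.0367) and with no filter (adjusted p = 0.0472). Without brainstem control 3 the number past the threshold was 15, with Mal, Mog, Mag, Cnp, Opalin, Gjb1, Hapln2, Trf and Qdpr lost. The call of Opalin was lost in 16 of the 24 fits that left out 1 library and in 6 of 10 other settings. That of Mag was lost in 9 of the 24 fits and in 1 of the 10 settings.

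Nfasc gave the smallest p of the 32 genes. Its level was 1470.4, 2105 and 1472 in brainstem controls, and 300.4 to 698 in all other controls, with no overlap. The log2 fold change was 1.59 (SE 0.15, adjusted p = 4.70e-09). It held in every fit that left out 1 of the 24 libraries, at an adjusted p of at most 1.85e-07.

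Klk6, on the plus strand at chr7:43824499-43832030 of mm10, had the largest brainstem ratio. Its level was 62.0, 83.3 and 94.7 in brainstem controls, which came from 58, 41 and 44 reads. In the other controls it was 4.43, 0.808 and 0 in olfactory bulb, 0, 10.2 and 0 in hippocampus, and 3.26, 1.27 and 3.11 in cortex, or 0 to 11 reads each. A count of 0 allowed a level of up to 1.12 to 1.91 in the 3 controls without a read, that of 3 reads and for counting error only. The brainstem mean was 31.2 times the mean of the other control regions on the level scale. Klk6 passed the filter for testing through the brainstem libraries alone, where it is high, so these values are a description and no test is given.

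Mbp was higher in brainstem controls by 1.93 (SE 0.38, adjusted p = 0.00134), and each of the 3 libraries lay above all other controls. The same lack of overlap held for Ugt8a (log2 fold change 1.85, adjusted p = 0.00452), Gjc3 (1.65, adjusted p = 0.0029), Trf (1.51, adjusted p = 0.0105) and Bcas1 (1.90, adjusted p = 0.00168). Fa2h was higher by 1.55 (adjusted p = 0.00294), although 1 hippocampus control, at 211, lay within the brainstem range of 169 to 282. Among the transcription factors, the mean of Nkx6-2 in brainstem controls was 7.70 times that of the other control regions. Nkx6-2 too would not have passed the filter without the brainstem libraries, so no test is given. Nkx6-2 overlaps Inpp5a, a gene on the opposite strand with a mean level of 130 against 19.4 for Nkx6-2, and whether reads were counted by strand is not given in the sources used here.

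Olig1 and Olig2, the basic helix-loop-helix factors of the lineage, were higher in brainstem controls by 0.70 (adjusted p = 0.0018) and 0.92 (adjusted p = 0.0131). Both rested on brainstem control 2, where Olig1 was at 1851 beside 906 and 1031, and Olig2 at 551 beside 209 and 293. Without that library their adjusted p was 0.0562 and 0.179. Sox10 was at 46.0, 52.8 and 142 in brainstem controls and did not pass the test (log2 fold change -0.10, adjusted p = 0.904). Pdgfra (0.16, adjusted p = 0.718) and Gpr17 (-0.46, adjusted p = 0.533) did not pass it either, and Gpr17 had the smallest brainstem ratio of the 32 genes, 0.733 on the level scale.

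Other markers also moved with brainstem. The 10 choroid plexus markers, 5 of them above 0 in all 24 libraries, summed to 53251 to 252680 in brainstem controls, 253 to 351 in olfactory bulb controls, 75022 to 152130 in hippocampus controls and 1805 to 68029 in cortex controls. Of these 10, 8 passed the test as higher in brainstem controls. The 13 neuron markers, 12 of them above 0 in all 24 libraries, went both ways, 5 higher and 4 lower, with log2 fold changes of -2.70 to 3.02. Their sum was 3554 to 4566 in brainstem controls, 2799 to 4552 in olfactory bulb controls, 1521 to 2926 in hippocampus controls and 2163 to 3690 in cortex controls. Of the 14 astrocyte markers 5 were lower and 1 higher, with log2 fold changes of -2.66 to 0.83. Of 6 ependymal markers 4 were tested and 2 were higher, with sums of 116 to 548 in brainstem controls and 24.04 to 187 in the other controls. Of the 16 microglia markers 2 were lower, and 0 of the 12 endothelial markers passed. The part of these markers, and of the Rn45s share, in the results for the 32 genes was not tested.

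Hippocampus and cortex controls lay between for most of the 32 genes. By mean level, hippocampus was the highest control region for 4 genes and the lowest for 3. Cortex was the highest for 0 and the lowest for 4. In hippocampus controls 0 of the 32 genes passed the test against the other regions, where 2.85% of all genes did. Nkx2-2 was lower in all 3 hippocampus controls than in the other 9, as for 0.83% of all genes. At an unadjusted p under 0.05 there were 7 of 32, beside 13.5% of all genes. DESeq2 on recovered reads called 2, Olig2 (adjusted p = 0.0397) and Nkx2-2 (adjusted p = 0.0238), both lower, as did the fit without brainstem control 1 (adjusted p = 0.0249 and 0.0497). In cortex controls Olig1 alone was lower, at 532, 579 and 656 against 619 to 1851 in the other controls, where 2.63% of all genes tested were lower. Its log2 fold change was -0.67 (SE 0.16, adjusted p = 0.00585). Nfasc was also called without olfactory bulb control 3 (-0.45, adjusted p = 0.0292), and Aspa without hippocampus control 3 (-1.23, adjusted p = 0.0241).

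The libraries labelled knockout gave the regional order a second reading in separate libraries. Brainstem was the highest region for 28 of the 32 genes in libraries labelled knockout and for 25 in controls, and olfactory bulb was the lowest for 24 in each. The highest region was the same in both genotypes for 27 genes. For these counts of highest and lowest regions, the shares over all genes were not computed. In the libraries labelled knockout, all 3 olfactory bulb libraries lay below the other 9 for 15 genes, against 3.14% of all genes tested, and all 3 brainstem libraries lay above the other 9 for 19 genes, against 5.78%. Among controls the counts were 12, against 3.01% of all genes, and 8, against 3.41%. Without the 3 genes that needed the brainstem libraries to pass the filter, the 2 brainstem counts were 17 in libraries labelled knockout and 7 in controls, of 29 genes.

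Over both genotypes, all 6 olfactory bulb libraries lay below the other 18 for Mbp, Ermn, Tspan2, Myrf, Gpr37 and Bcas1, 6 of the 32 genes, where this held for 0.626% of all genes. All 6 brainstem libraries lay above the other 18 for Mbp, Gjc3, Nfasc, Trf, Klk6 and Ndrg1, again 6, or 5 of 29 without Klk6, where this held for 1.13% of all genes. The mean of Sox10 in olfactory bulb was 3.23 times that of the other regions in libraries labelled knockout and 3.35 times in controls. For Aspa the same ratio was 2.08 in libraries labelled knockout and 2.06 in controls, and for Mbp it was 0.180 in libraries labelled knockout and 0.214 in controls. In brainstem, Klk6 stood at 26.0 times the other regions in libraries labelled knockout and 31.2 times in controls, and Nkx6-2 at 7.75 times in libraries labelled knockout and 7.70 times in controls.

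**Figure D3:**
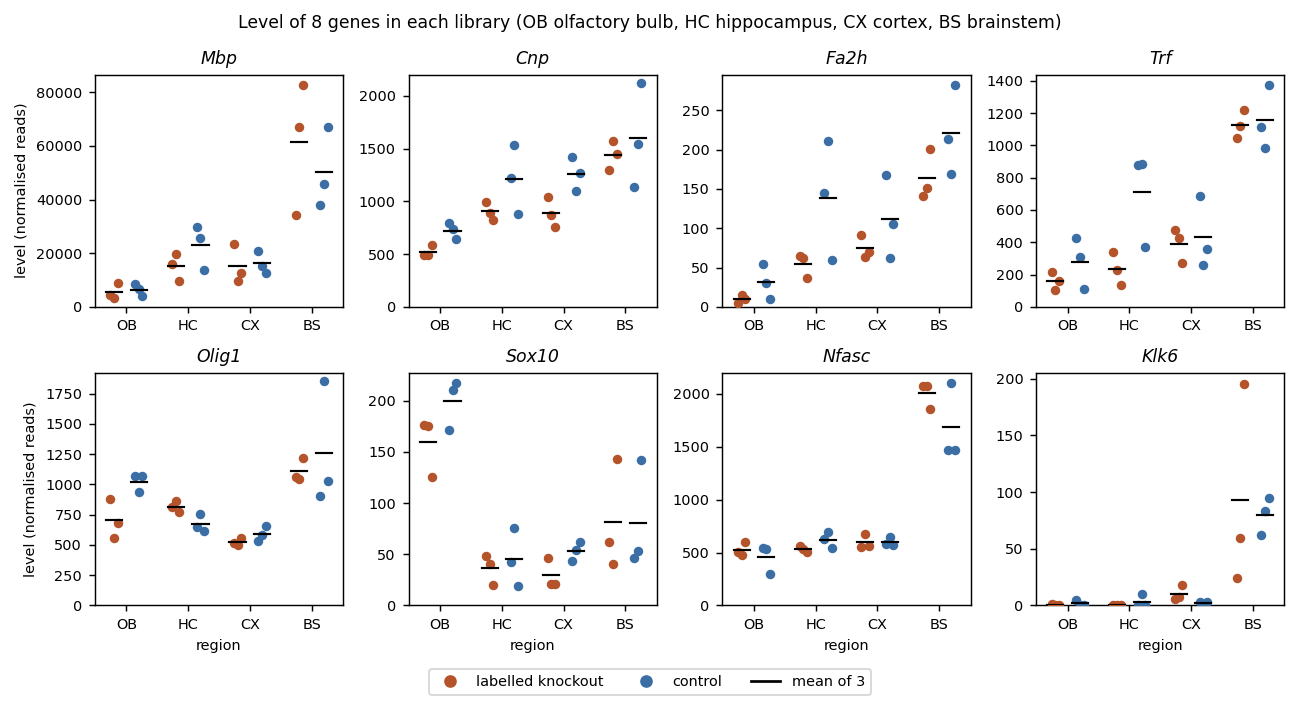
Levels of 8 genes in each of the 24 libraries by region, libraries labelled knockout left of controls, with the mean of each 3 as a bar. Mbp, Nfasc and Klk6 separate brainstem from the other regions in both genotypes, Sox10 separates most olfactory bulb libraries, and Cnp lies lower in libraries labelled knockout in olfactory bulb and cortex.

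Mbp and Bcas1 kept a near fixed ratio while their levels ranged widely, and ratios of Mbp to sheath genes varied more. Mbp over Bcas1 per kilobase was 3.84 to 5.38 over the 24 libraries, with a mean of 4.55 ± 0.420 (SD), while Mbp ranged 24.8-fold and Bcas1 27.1-fold. Mbp over Mobp per kilobase was 8.12 to 15.6 (mean 11.7 ± 1.69). The ratio per kilobase was 23.9 to 112 for Mbp over Mog and 77.7 to 588 for Mbp over Mag. The core myelin genes are Mbp, Mobp, Mal, Mog, Mag, Cnp, Cldn11, Opalin and Ermn themselves. Relative to their sum per kilobase, with each gene left out of its own sum, 23 of the 32 genes varied less than their own level did. The share over all genes was not computed. For Bcas1 the SD over the libraries on the log2 scale was 0.173 as a ratio and 1.28 as a level, and for Mobp it was 0.217 as a ratio and 1.24 as a level. Averaged over the libraries Mbp makes up most of that sum, and with Mbp left out of it the SD as a ratio was 0.425 for Bcas1 and 0.491 for Mobp. The number of genes that varied less as a ratio was 23 without Mbp too.

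The other 9 genes, Cnp, Aspa, Sox10, Olig1, Olig2, Nkx2-2, Gjb1, Pdgfra and Gpr17, varied more as a ratio to core myelin than as a level. The core sum itself ran from 684 to 12541 per kilobase over the libraries. A gene at a near constant level therefore has to vary more as a ratio, and the split largely restates which genes followed the regional order. Pdgfra had an SD of 1.07 as a ratio and 0.395 as a level, and Olig1 had one of 1.10 as a ratio and 0.467 as a level. The fold range over libraries was smallest for Olig1 (3.69), Pdgfra (3.83) and Cnp (4.32), and, among the 26 genes with more than 3 reads in every library, it was largest for Ermn (57.1), Fa2h (55.2) and Mag (53.4), the adhesion protein on the axon-facing side of myelin. Of the 10 sheath genes, Cnp alone varied more as a ratio than as a level.

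Mbp over Cnp per kilobase averaged 18.04 ± 6.53 in brainstem libraries labelled knockout and 13.6 ± 0.836 in brainstem controls, but 4.39 ± 1.90 in olfactory bulb libraries labelled knockout and 3.72 ± 0.999 in olfactory bulb controls. Sox10 over Myrf per kilobase was 8.53 to 14.5 in the 6 olfactory bulb libraries and 0.497 to 2.41 in the other 18, so that the regions did not overlap. Olig2 over Sox10 per kilobase was 1.10 to 1.95 in olfactory bulb and 2.32 to 12.6 elsewhere, again with no overlap. These ratios were chosen after the levels were seen, and no test was made of them.

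**Figure D4:**
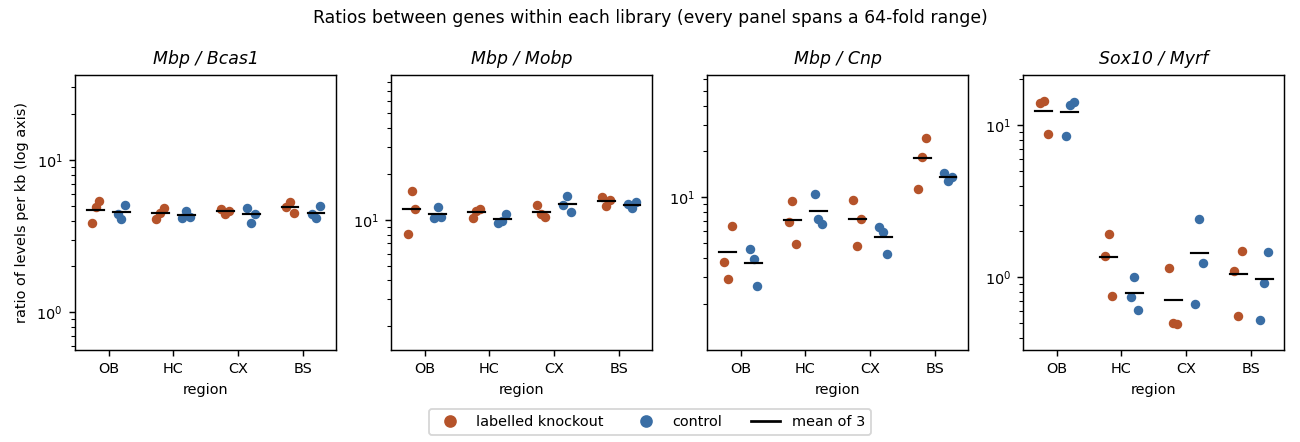
Ratios of levels per kilobase in each of the 24 libraries on log axes that all span 64-fold, by region, libraries labelled knockout left of controls. Mbp over Bcas1 stays within 3.84 to 5.38, Mbp over Cnp spans 2.62 to 24.4, and Sox10 over Myrf is 8.53 or more in olfactory bulb only.

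Between the genotypes within a region, 0 of the 32 genes passed the test in olfactory bulb, hippocampus, cortex or brainstem (limma, adjusted p under 0.05), where 0.0861%, 2.36%, 0.376% and 0.666% of all genes did. At an unadjusted p under 0.05 the counts were 3, 4, 1 and 0 of 32 in the same order of regions, where 5.09%, 13.4%, 6.11% and 14.8% of all genes were under it. The 4 in hippocampus lie at that background, and the 0 in brainstem lie under it. DESeq2 called 2 in hippocampus, described below. The median log2 fold change over the 32 genes was -0.53 in hippocampus, -0.33 in olfactory bulb, -0.10 in cortex and 0.12 in brainstem, beside medians over all genes of 0.01 or less in size. Log2 fold changes were negative for 27 of the 32 genes in hippocampus, 26 in olfactory bulb, 22 in cortex and 13 in brainstem.

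Counted by groups that did not overlap, Gpr37 and Hapln2 were higher and Cnp, Myrf and Olig1 lower in all 3 olfactory bulb libraries labelled knockout, where 7.15% of all genes were so higher and 6.92% lower. In hippocampus Olig1 and Nkx2-2 were so higher and Gjb1 and Trf lower, beside 9.72% and 10.4% of all genes. In cortex Nkx6-2 and Klk6 were so higher and Cnp lower, beside 7.06% and 7.47%. In brainstem 0 of the 32 genes were so higher or lower, beside 5.41% and 5.65%. The counts of 5, 4, 3 and 0 of 32 genes lie near or under these background shares and are not read as results about the 32 genes.

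Hippocampus had the most negative median, and there Trf gave the smallest p. Trf, on the minus strand at chr9:103204001-103230444 of mm10, had levels of 337, 231 and 138 in hippocampus libraries labelled knockout and of 881, 883 and 368 in hippocampus controls. The groups did not overlap, with 337 and 368 as the nearest pair, as for 10.4% of all genes in that direction. The log2 fold change was -1.56 (SE 0.48, adjusted p = 0.103). DESeq2 on recovered reads called it (adjusted p = 0.0226), as did limma with the replicate number as a block (0.0293) and the fits without hippocampus control 3 (0.0496) or without olfactory bulb control 3 (0.0412). Klk6 was the other gene that DESeq2 called in hippocampus (adjusted p = 0.0387), on 0, 0 and 0 reads in libraries labelled knockout against 0, 11 and 0 in controls. Exons of Trf overlap those of Gm20425 on the same strand over 63.5% of their length, so the 2 may share reads.

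Mbp in hippocampus was at 16074, 19528 and 9506 in libraries labelled knockout against 29665, 25802 and 13612 in controls, overlapping groups with a log2 fold change of -0.60 (adjusted p = 0.654). Hippocampus control 3 was the lowest of the 3 controls for Mbp, Cnp, Fa2h, Trf, Ugt8a, Gjc3, Qdpr and Bcas1. Without it the median over the 32 genes in hippocampus was -0.94. The choroid plexus markers differed in the same comparison, with sums of 2327 to 6410 in hippocampus libraries labelled knockout and 75022 to 152130 in hippocampus controls, and 7 of 10 passed the test as lower. Their part in the values of the 32 genes was not tested.

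In olfactory bulb, Olig1 had the smallest p. It lies on the plus strand at chr16:91269772-91271933 of mm10. Its level was 876, 554 and 685 in libraries labelled knockout, all below the 1067, 937 and 1067 of controls, as for 6.92% of all genes. The log2 fold change was -0.56 (SE 0.19, adjusted p = 0.577). Fa2h was at 5.11, 14.6 and 10.03 in libraries labelled knockout against 54.2, 30.7 and 9.32 in controls, and the groups overlapped through control 3. The 16 microglia markers, all above 0 in every library, summed to 2800 to 3544 in olfactory bulb libraries labelled knockout and to 2914 to 7082 in controls. In brainstem Mbp was at 34296, 66915 and 82639 in libraries labelled knockout and at 38094, 45756 and 67041 in controls (log2 fold change 0.23, adjusted p = 0.87).

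Averaged over the 4 regions, 2 of the 32 genes were lower in libraries labelled knockout, Cnp and Fa2h, and 0 were higher, where 3.01% of all genes tested were lower and 2.71% higher. Log2 fold changes were negative for 25 of the 32 genes, with a median of -0.21 beside -0.01 over all genes. By role, the 10 sheath genes were all negative, between -0.47 and -0.20, as were the 3 lipid enzymes, while 3 of 6 transcription factors were negative and 3 positive. All but Cnp and Fa2h missed the threshold.

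Cnp, on the plus strand at chr11:100574904-100591729 of mm10, had levels of 491, 493 and 583 in olfactory bulb libraries labelled knockout, against 795, 735 and 642 in controls. In hippocampus it was 998, 894 and 828 in libraries labelled knockout, against 1220.5, 1539.5 and 879 in controls. In cortex it was 1039, 867 and 755 in libraries labelled knockout, against 1420.5, 1101 and 1269 in controls. The groups did not overlap in olfactory bulb and cortex, in a direction in which 6.92% and 7.47% of all genes did not, and they overlapped in hippocampus through control 3. In brainstem they overlapped too, with 1294, 1573 and 1453 in libraries labelled knockout and 1134, 1540.2 and 2122 in controls. The average log2 fold change was -0.37 (SE 0.10, adjusted p = 0.0213), made up of -0.47, -0.39, -0.51 and -0.11 in olfactory bulb, hippocampus, cortex and brainstem. It passed the threshold in all 24 fits that left out 1 library, at an adjusted p of at most 0.0499. The exons of Cnp overlap the opposite-strand gene Dnajc7 over 4.23% of their length.

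Fa2h, on the minus strand at chr8:111345135-111393824 of mm10, averaged 9.91 ± 4.74 in olfactory bulb libraries labelled knockout and 31.4 ± 22.5 in controls (SD, n = 3 each). Those olfactory bulb levels came from 5, 21 and 8 reads in libraries labelled knockout, and from 49, 38 and 17 in controls. In hippocampus its level was 65.2, 62.5 and 36.9 in libraries labelled knockout, against 145, 211 and 59.9 in controls. In cortex it was 91.5, 63.98 and 69.3 in libraries labelled knockout, against 168, 62.0 and 106 in controls. In each of these regions 1 control lay within or below the range of libraries labelled knockout. Brainstem gave 141, 151 and 201 in libraries labelled knockout and 214, 169 and 282 in controls, again overlapping. The average log2 fold change was -0.78 (SE 0.22, adjusted p = 0.0347). That call was lost in 14 of the 24 fits that left out 1 library, at an adjusted p of up to 0.0788.

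Ugt8a (average log2 fold change -0.47, adjusted p = 0.36), Mbp (-0.20, adjusted p = 0.721) and Bcas1 (-0.27, adjusted p = 0.599) did not pass the test. Trf did not either, at -0.58 (adjusted p = 0.183), and passed it without olfactory bulb control 3 (adjusted p = 0.0424). Gpr37, an orphan receptor of myelinating cells, was at 0.29 (adjusted p = 0.204) and passed without hippocampus control 2 (adjusted p = 0.0490). Gjc3 (-0.22), Pdgfra (-0.17), Olig2 (0.13), Nfasc (0.07), Gpr17 (0.07), Qdpr (-0.06) and Klk6 (-0.02) did not pass it either. Astrocyte markers moved in the same average, 4 of 14 higher and 1 lower, and 7 of 10 choroid plexus markers were lower.

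**Figure D5:**
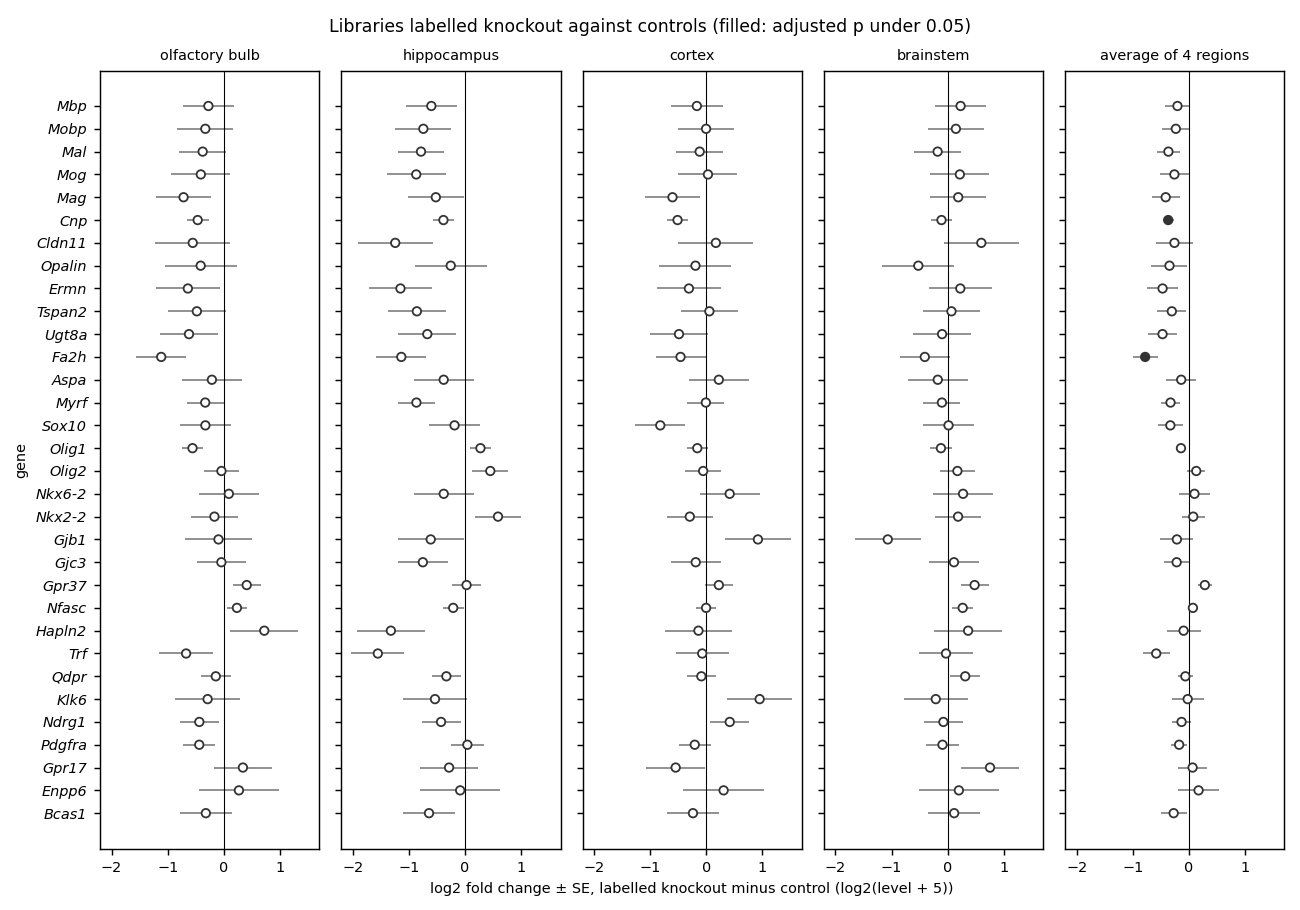
Log2 fold change with its SE, libraries labelled knockout against controls, for the 32 genes in each of the 4 regions and averaged over them, filled where the adjusted p is under 0.05. Points lie mostly below 0 in hippocampus and olfactory bulb and on both sides of 0 in brainstem, and only Cnp and Fa2h in the average are filled.

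Whether the difference between genotypes itself differed among regions was tested with an F test in the same fit. It called 0 of the 32 genes, where 0.0705% of all genes were called. At an unadjusted p under 0.05 there was 1 of 32, beside 7.30% of all genes. The smallest p was that of Olig1 (adjusted p = 0.641, limma), which was lower in libraries labelled knockout in olfactory bulb, as given above. In hippocampus it was at 809.6, 865 and 774 in libraries labelled knockout, all above the 648, 759 and 619 of controls, as for 9.72% of all genes, with a log2 fold change of 0.28 (adjusted p = 0.592). In cortex the log2 fold change was -0.16 and in brainstem -0.12, and the groups overlapped in both.

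Levels of the other abundant genes of each role ran as follows in single libraries. The level of Ugt8a in brainstem was 502, 627 and 1217 in libraries labelled knockout, against 666, 648 and 1089 in controls. Hippocampus held 315, 267 and 141 in libraries labelled knockout, against 466, 598 and 176 in controls. Brainstem libraries were the higher in both genotypes and hippocampus control 3 was low among its group. Ugt8a in cortex was at 409, 151 and 106 in libraries labelled knockout, against 374, 188 and 264 in controls. Olfactory bulb held 65.4, 58.4 and 62.7 in libraries labelled knockout, against 141, 124 and 53.2 in controls. The 2 genotypes overlapped in all 4 regions. Gjc3 behaved much alike. Brainstem levels of Gjc3 were 651, 918 and 1062 in libraries labelled knockout, against 602, 821 and 1011 in controls. Gjc3 in hippocampus stood at 254, 249.9 and 118 in libraries labelled knockout, against 514, 462 and 155 in controls. All 6 brainstem libraries lay above the 6 of hippocampus. In cortex Gjc3 was at 455, 221 and 171 in libraries labelled knockout, against 328, 271 and 291 in controls. In olfactory bulb Gjc3 was at 167, 132 and 158 in libraries labelled knockout, against 269, 157 and 89.9 in controls. Again the genotypes overlapped in each region.

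Qdpr, the cofactor enzyme, spanned a narrower range. In brainstem Qdpr was at 738, 997 and 1412 in libraries labelled knockout, against 641, 794 and 1054 in controls. In hippocampus Qdpr was at 539.9, 659 and 441 in libraries labelled knockout, against 998, 706 and 446 in controls. The highest hippocampus control, 1, lay within the brainstem range. Cortex levels of Qdpr were 664, 438 and 435 in libraries labelled knockout, against 578, 488 and 539 in controls. Olfactory bulb levels of Qdpr were 290.0, 285 and 283 in libraries labelled knockout, against 449, 284 and 248 in controls. The genotypes overlapped in every region. Bcas1 tracked Mbp. Bcas1 in brainstem was at 3127, 5644 and 8262 in libraries labelled knockout, against 3848, 4935 and 6004 in controls. Hippocampus levels of Bcas1 were 1747, 1935 and 874 in libraries labelled knockout, against 3186, 2477 and 1429.8 in controls. Brainstem libraries stood above those of hippocampus in each genotype, by 3127 against 1935 at the nearest in libraries labelled knockout. Bcas1 in cortex was at 2181, 975 and 1213 in libraries labelled knockout, against 1929.8, 1743 and 1259.9 in controls. Bcas1 in olfactory bulb was at 497, 304 and 734 in libraries labelled knockout, against 854, 739 and 344 in controls. All 6 olfactory bulb libraries lay below the other 18.

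Nfasc separated brainstem from the rest. Nfasc in brainstem was at 2077, 2073 and 1860.3 in libraries labelled knockout, against 1470.4, 2105 and 1472 in controls. In hippocampus Nfasc was at 564, 537 and 503 in libraries labelled knockout, against 629.7, 698 and 539.9 in controls. The 6 brainstem libraries lay far above the hippocampus ones. In cortex Nfasc was at 556, 677 and 565 in libraries labelled knockout, against 585, 645 and 567 in controls. In olfactory bulb Nfasc was at 509, 474 and 596 in libraries labelled knockout, against 546, 533 and 300.4 in controls. Outside brainstem the 18 libraries stayed between 300.4 and 698. Trf in brainstem was at 1044, 1119.5 and 1217 in libraries labelled knockout, against 1115, 983 and 1375 in controls. In cortex it was at 474, 425 and 269 in libraries labelled knockout, against 686, 257 and 357 in controls. In olfactory bulb it was at 213, 102 and 157 in libraries labelled knockout, against 424, 306 and 109.6 in controls. The genotypes overlapped in these 3 regions, unlike in hippocampus.

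Klk6 in libraries labelled knockout was at 24.5, 59.5 and 195 in brainstem, 5.26, 7.75 and 18.2 in cortex, 1.02, 0 and 0 in olfactory bulb and 0 in all 3 of hippocampus. In brainstem these came from 19, 37 and 34 reads. Cortex libraries labelled knockout lay above the cortex controls given earlier, on 4 to 20 reads each, and the difference did not pass the test (log2 fold change 0.95, adjusted p = 0.91). Mbp in cortex was at 23230.0, 9596 and 12601 in libraries labelled knockout and in olfactory bulb at 4286, 3332 and 8859, overlapping the controls in both. Olig1 was at 516, 502 and 557 in cortex libraries labelled knockout and at 1061, 1047 and 1217 in brainstem libraries labelled knockout, against 906, 1851 and 1031 in brainstem controls.

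Olig2, on the plus strand at chr16:91225457-91228677 of mm10 beside Olig1, varied less by region. In brainstem Olig2 was at 319.8, 372 and 413 in libraries labelled knockout, against 209, 551 and 293 in controls. In hippocampus Olig2 was at 202, 190.2 and 139.8 in libraries labelled knockout, against 80.9, 145 and 172 in controls. Brainstem control 2 was the highest library and hippocampus control 1 the lowest. Cortex levels of Olig2 were 225, 118 and 164 in libraries labelled knockout, against 167, 135 and 218 in controls. Olfactory bulb levels of Olig2 were 241, 208 and 202 in libraries labelled knockout, against 156, 201 and 351 in controls. Genotypes overlapped in all regions.

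For Pdgfra all regions overlapped. In brainstem Pdgfra was at 126, 158 and 121 in libraries labelled knockout, against 123, 165 and 144 in controls. In hippocampus Pdgfra was at 166, 249.9 and 85.5 in libraries labelled knockout, against 145, 149.8 and 150.4 in controls. Hippocampus library 2 labelled knockout was the highest of all 24. Pdgfra in cortex was at 96.8, 101 and 92.95 in libraries labelled knockout, against 138, 105 and 97.9 in controls. Pdgfra in olfactory bulb was at 119, 92.4 and 65.2 in libraries labelled knockout, against 112, 162 and 104 in controls. The lowest of all 24 was olfactory bulb library 3 labelled knockout. Gpr17 was low in all regions. In brainstem Gpr17 was at 41.3, 54.7 and 68.9 in libraries labelled knockout, against 13.9, 54.9 and 32.3 in controls. In hippocampus Gpr17 was at 60.2, 63.6 and 14.4 in libraries labelled knockout, against 52.3, 68.9 and 32.02 in controls. Hippocampus control 2 was the highest control. Gpr17 in cortex was at 15.8, 50.4 and 36.5 in libraries labelled knockout, against 35.8, 46.8 and 65.2 in controls. Gpr17 in olfactory bulb was at 82.7, 27.1 and 36.4 in libraries labelled knockout, against 58.6, 37.98 and 15.9 in controls. The highest of all 24 was olfactory bulb library 1 labelled knockout, and the genotypes overlapped in all 4 regions.

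Other genes of the lineage, from 2 further lists, were set beside the 32. Of 26 other mature oligodendrocyte genes 23 were tested, and 0 differed between genotypes in any region or on average. In olfactory bulb controls 11 of the 23 were lower and 1 higher. Evi2a was at 0.25 times (adjusted p = 6.64e-05), the log2 fold change of Pex5l, which resembles a peroxisomal receptor, was -1.74 (adjusted p = 0.000751) and that of Tmem88b -2.02 (adjusted p = 0.000879), while Apod, an apolipoprotein that ensheathing glia and fibroblasts also make, was higher by 2.67 (adjusted p = 0.000273). In brainstem controls 12 were higher and 0 lower, among them Plekhb1 (log2 fold change 0.90, adjusted p = 0.000195), Pex5l (1.79, adjusted p = 0.000485) and Evi2a (1.54, adjusted p = 0.00119). In cortex controls Apod (-2.02, adjusted p = 0.006) and the lysophosphatidic acid receptor Lpar1 (-0.94, adjusted p = 0.0391) were lower, and in hippocampus controls 0 passed.

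Of 14 other precursor genes, all tested, 4 were higher and 0 lower in olfactory bulb controls, Matn4 (1.96, adjusted p = 0.000927), Cacng4 (1.83, adjusted p = 0.000992), Sox8 (0.82, adjusted p = 0.000998) and the matrix protein gene Tnr (1.63, adjusted p = 0.0083). In hippocampus controls 3 were lower, Cacng4 (-1.77, adjusted p = 0.00632), Sox8 (-0.73, adjusted p = 0.0121) and Neu4 (-1.91, adjusted p = 0.0191). In cortex controls Lhfpl3 was lower (-1.16, adjusted p = 0.0294). In brainstem controls Lhfpl3 was higher (1.85, adjusted p = 0.000186) and Sox6, a factor of precursor cells, lower (-0.62, adjusted p = 0.0128). In the average between genotypes Bmp4, a secreted growth factor that committed precursors make, was lower in libraries labelled knockout (log2 fold change -1.07, SE 0.30, adjusted p = 0.0316), the only one of the 14. The values of these genes and of the 32 come from the same libraries and fit.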

How the data were processed

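RNA of sorted astrocytes was sequenced after RNeasy Micro extraction and Trio RNA-Seq library preparation from 5 ng of total RNA, per the labels' protocols. The deposited tables, 1 for each library, hold normalised signal per gene, and the submitters' processing notes list FastQC, STAR 2.5.0a, DESeq2 1.20.0 and mm10 without giving the role of each. The annotation, counter and strand setting are not given in the sources used here.

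In every library 100% of the deposited values were whole reads divided by 1 factor, within 0.01 read. The 6 cortex libraries were on a scale of their own, at 1.26 to 1.27 times the joint one. Recovered reads were therefore divided by median-of-ratios size factors computed over all 24 libraries. Since the deposited values are normalised, the main test was limma 3.58.1 (R 4.3.3, trend and robust) on log2(level + 5), over 12770 genes with a level of at least 20 in at least 3 libraries, with 8 group means and 16 residual degrees of freedom. Tests were two-sided, with Benjamini-Hochberg adjustment over all genes of a comparison and a threshold of 0.05. edgeR 4.0.16 and DESeq2 1.42.0 on recovered reads, other added constants, filters, scales and blocks, and leaving out each library were alternatives. The labels do not tie libraries to animals, so p-values measure the spread between these libraries, which may be technical. The fit was tested on simulated data, with 100 genes changed 2-fold and 100 changed 4-fold. For the genotypes in hippocampus it recovered 37 of the 2-fold and 62 of the 4-fold changes. The numbers were 75 and 93 for the average between genotypes, and 41 and 79 for brainstem controls. A gene that did not pass a test may therefore still have changed.

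Full values are given for genes called between genotypes, for the 2 genes of each role with the highest level per kilobase, and for the largest and smallest brainstem ratio. Values of Sox10, Aspa, Myrf, Ermn, Tspan2, Mobp, Gpr37, Nkx6-2 and Mag are given because they were seen to stand out. From the other lineage lists, up to 4 called genes of each list with the smallest p per comparison are named, and 1 such gene is not reported here. The genes, lists and comparisons were chosen with earlier results of these data known. Coordinates and exon lengths are from GENCODE vM21 on mm10. Promoter words were searched on both strands, and the palindrome holds no TTGGCA unless an A follows its first 5 letters.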

Additional observations from a re-analysis of the deposited data

Results flagged for a closer look

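Olig1 differed in opposite directions in 2 regions. Every hippocampus library labelled knockout lay above every hippocampus control, and every olfactory bulb library labelled knockout lay below every olfactory bulb control. The log2 fold change in hippocampus minus that in olfactory bulb was 0.83. The F test over the 4 regions gave an adjusted p of 0.641 (limma), which did not pass the threshold, and the adjusted p was 0.567 to 0.708 over the alternatives. The 2 directions were seen before this difference was singled out among the 32 genes.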

How the results depend on the processing

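Of 10799 single-gene values under alternatives, 10651 kept direction and side of the threshold, 105 fell short of it, 43 newly passed it and 0 reversed. Between genotypes, the count of the 32 genes was 2 in hippocampus with DESeq2, 1 there with the replicate block, and 1 in the average with no filter, where the main counts were 0, 0 and 2. Between regions it was 2 in hippocampus controls with DESeq2, against 0, and 0 in cortex controls with an added fold threshold, against 1. Leaving out 1 library gave 0 of the 32 genes in olfactory bulb, cortex and brainstem and in the F test, 0 to 1 in hippocampus and 1 to 3 in the average. Between control regions it gave 18 to 26 in olfactory bulb, 0 to 2 in hippocampus, 1 to 2 in cortex and 15 to 26 in brainstem.

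Counts over all genes moved more. For olfactory bulb genotypes (11) they were 22 with the constant 20, 17 with no filter, 60 with DESeq2 and 76 with the libraries of the region alone. For hippocampus (301) DESeq2 gave 640. For cortex (48) they were 30 with no filter, 92 with DESeq2 and 133 with the region alone. For brainstem (85) they were 31 with edgeR, 167 with DESeq2, 128 with the block and 0 with the region alone. The F test (9) called 0 with no filter, 15 with edgeR, 86 with DESeq2 and 19 with the block. An added fold threshold left 1096 of 1810 genes in olfactory bulb controls, 220 of 364 in hippocampus, 445 of 871 in cortex and 1250 of 2243 in brainstem, and DESeq2 called 618 in hippocampus controls. Without 1 library the counts over all genes were 3 to 25, 84 to 440, 18 to 72 and 17 to 870 between genotypes in olfactory bulb, hippocampus, cortex and brainstem, 534 to 1278 in the average and 0 to 90 in the F test. Between control regions they were 1219 to 2130, 226 to 549, 389 to 1258 and 1319 to 2563, in the same order. The cause of these changes was not tested.

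The labels tie same-numbered libraries of the 2 genotypes by number only. Their deviations from the group means correlated at -0.11 to 0.32, over 0.1 in 5 of 12 pairs. Those of differently numbered libraries correlated at -0.29 to 0.16, over 0.1 in 2 of 24 pairs. Whether same-numbered libraries shared more than a number was not tested. As a hint from the data and not the design, 15 of 24 libraries correlated best with their own number. With the replicate block the average between genotypes called 2 of the 32 genes and 823 of all, the counts over all genes were 16 in olfactory bulb, 378 in hippocampus and 54 in cortex, and the control regions called 22 of the 32 genes in olfactory bulb and 24 in brainstem. Counting intervals are not given for single libraries, and levels of Klk6, Hapln2, Gjb1 and Nkx6-2 outside brainstem rest on few reads. So do levels of Fa2h, Opalin and Enpp6 in olfactory bulb.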
